A study of Canis lupus familiaris with 186 samples.

Results

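Among the 186 canine osteosarcomas of the series, 58 belonged to the favorable prognosis (FP) cluster of the immune signature GS-1, and these inflamed tumors were divided by their B-lineage transcripts. CD79A encodes a signalling chain of the B cell receptor and JCHAIN the joining chain of polymeric IgM and IgA. The score of a tumor was the mean of log2(CPM + 1) of both genes, where CPM is the count of a gene over the library total, times 1000000. The 19 FP tumors with the highest scores are called B-lineage-rich, the 19 with the lowest B-lineage-poor, and the 20 between them middle. The remaining 128 tumors formed the poor prognosis (PP) cluster and were used to compare.

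All samples were untreated appendicular primary tumors of pet dogs without macroscopic metastases at entry, taken at amputation in the trials COTC021 and COTC022. Afterwards the dogs of both groups received carboplatin, with or without rapamycin. Bulk RNA was sequenced after poly(A) selection, 1 library per dog, so each tumor is a separate animal. Totals ran from 7285217 to 20851591 expected counts in the rich and from 6587634 to 20287883 in the poor tumors, against 6587634 to 27420867 over all 186. COTC021 gave 11 of the 19 rich and 7 of the 19 poor tumors, and trial was a term of every gene-wise fit unless stated.

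B cells display antigen receptors and, once activated, can mature into plasma cells, which secrete antibody and no longer carry much of the B cell surface program. In lymph nodes and in the lymphoid aggregates that form in some tumors, stromal and myeloid cells release the chemokines CXCL13, CCL19 and CCL21, which draw B cells and T cells together. High endothelial venules admit lymphocytes, follicular dendritic cells hold antigen, and T follicular helper cells assist B cells. In osteosarcoma the tissue also holds osteoblast-like tumor cells, osteoclasts, macrophages and, at times, marrow.

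The score, which chose the members, had no gap at either boundary and is given as a description only. Poor tumors scored 1.93 to 3.33 (median 2.95) and rich tumors 4.95 to 9.48 (median 6.21). The highest poor tumor, at 3.33, lay beside the lowest middle tumor, at 3.36, and the highest middle tumor, at 4.90, beside the lowest rich tumor, at 4.95. The steepest step lay inside the rich group, where 4 tumors scored 8.44, 9.02, 9.21 and 9.48. Of the PP tumors, 1 scored above the lowest rich tumor and 108 below the highest poor tumor.

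**Figure D1:**
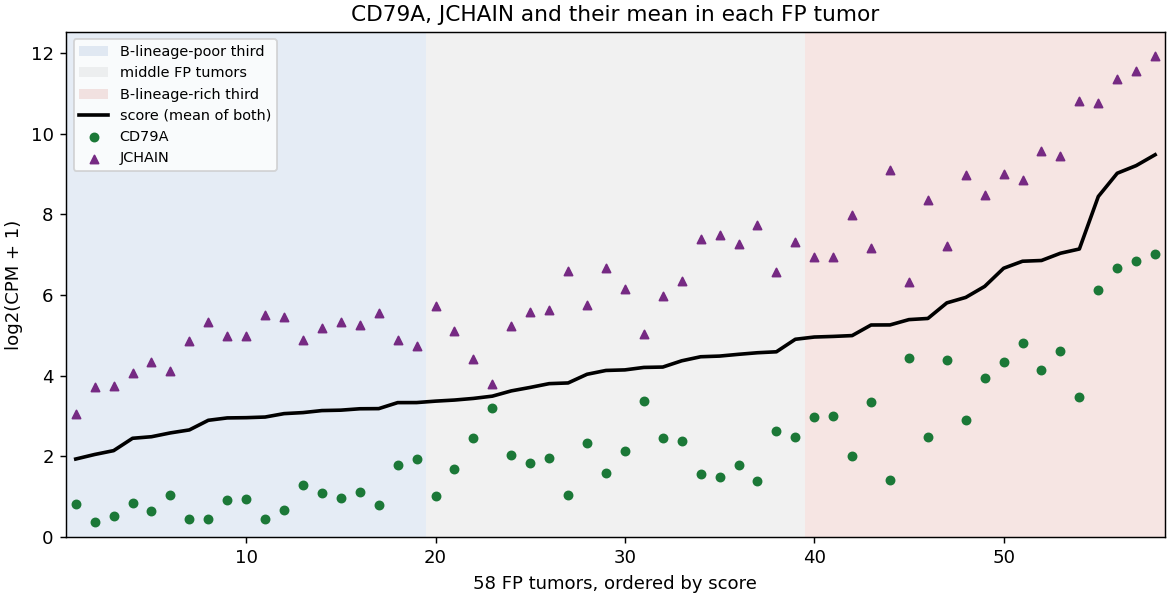
CD79A (circles), JCHAIN (triangles) and their mean (line), as log2(CPM + 1) on the vertical axis, in each of the 58 FP tumors ordered by score on the horizontal axis. The line climbs evenly from 1.93 to 4.90 through the poor and middle tumors and reaches 9.48 at the last of the 19 rich tumors.

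CD79A was at 1.65 to 128 CPM (median 16.5) in rich tumors and at 0.295 to 2.81 CPM (median 0.780) in poor tumors. JCHAIN was far more abundant in read terms, at 79.3 to 3924 CPM (median 501) in rich and 7.30 to 46.2 CPM (median 28.5) in poor tumors. The ranges of JCHAIN did not meet, whereas 18 of 19 rich tumors lay above every poor tumor in CD79A. Over the 58 FP tumors, which share the library type, the ranks of both genes had a Spearman's rho of 0.68. JCHAIN reads per CD79A read spread from 3.81 to 334 among rich tumors (median 26.5) and from 9.07 to 126 among poor tumors (median 33.8), so tumors with like scores differed in the balance of both genes.

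Other genes of B cells and plasma cells come from the same cells as the score and are also given as a description, from which nothing is tested. MS4A1, which encodes the B cell surface protein CD20, reached 11.4 CPM in rich tumors with a median of 1.45 CPM and a lowest value of 0. In poor tumors its highest value was 0.785 CPM, and at least 10 counts were seen in 11 rich and 1 poor tumor. Other tumors called B-lineage-rich therefore held few reads of this defining gene of mature B cells.

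Among plasma cell genes, POU2AF1, a lymphoid transcriptional coactivator, was at 2.41 to 193 CPM (median 12.6) in rich and at most 1.92 CPM in poor tumors, with no overlap. MZB1, a chaperone of antibody assembly, was at 1.24 to 184.5 CPM (median 12.1) in rich and at 0 to 3.70 CPM (median 0.596) in poor tumors. PIM2, a survival kinase of lymphoid cells, was at 1.98 to 93.7 CPM (median 10.9) in rich and 0.177 to 1.73 CPM (median 0.872) in poor tumors, also without overlap. TNFRSF17, the receptor BCMA of plasma cells, was at 0.128 to 14.6 CPM (median 1.72) against at most 0.456 CPM. XBP1, a secretory transcription factor that many cell types use, was at 109.4 to 539 CPM (median 177.2) in rich and 87.4 to 238 CPM (median 187) in poor tumors.

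Antigen receptor gene segments gave the widest contrast in reads. Of those that the annotation places on chromosomes 8, 17 and 26, 123 were counted. On chromosome 8 only the end region that holds the constant-region genes named below was used, and any segments elsewhere on it were left out. Together the 123 took 0.129 to 13.0% of all counts in rich tumors (median 0.994%). In middle tumors the share was 0.00388 to 0.223% (median 0.0576%), in poor tumors 0.00286 to 0.0639% (median 0.0155%), and in PP tumors 5.75e-05 to 0.459% (median 0.00552%). No poor tumor reached the lowest rich tumor. In the 4 rich tumors with the highest scores the shares were 1.88, 8.06, 13.0 and 10.1%, in ascending order of score.

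The constant-region gene LOC119869019 (chromosome 8, 73397384 to 73404411 of UU_Cfam_GSD_1.0), chosen after its values were seen, was at 208 to 57829 CPM (median 5332) in rich tumors. In poor tumors it was at 6.63 to 407 CPM (median 32.9). A second constant region, LOC119869021 (chromosome 8, 73362232 to 73364181), was at 170.9 to 44654 CPM (median 1593) in rich tumors and at most 156.5 CPM in poor tumors. The chromosome 26 entries LOC119866080, LOC608238 and LOC119877604 were each listed at 13.7 to 2443 CPM in rich tumors, so reads of near-identical copies cannot be assigned to 1 of them. These segments share sequence and clonal content, and their values are uncertain for any single gene.

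Of the early B lineage list, which also holds genes that other cells use such as CD34 and EBF1, the genes of receptor rearrangement had few reads. RAG1, a recombinase of developing lymphocytes, reached 0.127 CPM in rich and 0.117 CPM in poor tumors. DNTT, which adds nucleotides during that recombination, reached 2.47 CPM and 0.730 CPM. The whole list summed to 91.7 to 1195 CPM (median 277) in rich and 151.1 to 596 CPM (median 382) in poor tumors, with overlapping ranges.

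The rich tumors also had higher levels of GS-1 and PTPRC within the FP cluster. The mean z-score of the GS-1 genes was 1.297 ± 0.769 (SD, n = 19) in rich and 0.651 ± 0.421 (SD, n = 19) in poor tumors, a difference of 0.646 (2-sided permutation test with 100000 resamples, adjusted p = 0.00318 over 3 levels). PTPRC, the pan-leukocyte protein CD45, was higher by 1.04 on the log2(CPM + 1) scale, with means of 7.64 ± 1.00 and 6.60 ± 0.75 (SD, n = 19 each; permutation, adjusted p = 0.00102). Both ranges overlapped, with 4 rich tumors above every poor tumor in each. B cells are leukocytes too, so the cells that the score counts add to PTPRC, and their part in its difference was not tested. In bulk RNA, fewer cells of a type and less RNA per cell cannot be told apart. The library total did not pass the test (p = 0.472, permutation).

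With low counts filtered out, 13421 genes were tested, and 80 were higher and 30 lower in rich tumors at an adjusted p below 0.05 (limma voom, Benjamini-Hochberg), which is 0.596% and 0.224% of those tested. A further criterion of more than 3-fold left 57 higher genes (0.425%) and 3 lower genes. At an unadjusted p below 0.05, 1986 of the 13421 genes passed, which is the background for the list counts below. EdgeR called 321 genes higher and 116 lower, and DESeq2 484 and 268. Of the 80, 10 were antigen receptor segments of the set above and 5 stood in the lists of B-lineage genes, which leaves 65 others. The lists do not hold every gene of B cells and plasma cells. Cells of the B lineage can also express some of the 65, such as IKZF3, CLEC2D and IL21R, so the score may set part of their direction. All 110 had the same sign in COTC021 and in COTC022, but they were called on these same tumors, so this is no replication. Of 36 called genes followed singly, 0 kept the call within either trial. The tests within trials were small: 12 genes were higher and 0 lower within COTC022 (1236 at an unadjusted p below 0.05), and 0 passed within COTC021 (limma, 1506 unadjusted).

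The T cell list held the most called genes. Of 11 tested genes of the T cell list, 8 were higher and 0 lower, with a median log2 fold change of 2.695 against 0.01 over all genes tested, and 12 others did not pass the filter. CD3E, a chain of the T cell receptor complex, was at 6.27 to 880 CPM (median 42.1) in rich, a median of 16.0 CPM in middle and 1.87 to 15.0 CPM (median 3.05) in poor tumors. The log2 fold change was 3.30 ± 0.66 (SE; adjusted p = 0.00719), and 15 of 19 rich tumors lay above every poor tumor. CD247, the zeta chain of the same complex, was at 4.48 to 262 CPM (median 15.9) in rich and 0.442 to 7.25 CPM (median 1.94) in poor tumors. It was higher by 3.12 ± 0.58 (adjusted p = 0.00346), with 18 rich tumors above every poor tumor.

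Other genes that act with or below the T cell receptor were higher too. LCK, the first kinase of the pathway, was at 3.61 to 482 CPM (median 18.6) in rich and 0.972 to 9.81 CPM (median 2.71) in poor tumors, a difference of 2.695 on the log2 scale (adjusted p = 0.0264). CD3G (3.65), CD6 (3.15), LAT (2.27) and CD2 (1.68) were also higher. Each of these groups overlapped at its edge. CD4, which macrophages also carry in some species, differed by 1.29 on the log2 scale (adjusted p = 0.294), and TCF7, a factor of naive and memory T cells, by 0.71 (adjusted p = 0.233).

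These calls depended on which score gene was used. With the score from JCHAIN alone, CD3E had a log2 fold change of 2.03 (adjusted p = 0.0977), LCK one of 1.65 (adjusted p = 0.151) and CD247 one of 2.29 (adjusted p = 0.0380). With the score from CD79A alone, CD3E had one of 3.99 (adjusted p = 0.000297). In both, the fold changes of these genes were above 0.

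Without the low-count filter, 468 of 26755 genes were higher (1.75%) and 58 lower (0.217%), and 20 of 23 T cell genes were among the higher ones. CD8A, the coreceptor of cytotoxic T cells, was at 0.602 to 170 CPM (median 4.35) in rich and at 0 to 2.98 CPM (median 0.387) in poor tumors. Its log2 fold change in that fit was 3.32 (adjusted p = 0.00765). The T cell list kept 7 called genes without the 4 rich tumors that scored above 8. With the mean level of the T cell list as a covariate, which itself contains these genes, the list median was 0.21 and CD3E had a log2 fold change of 0.58.

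**Figure D2:**
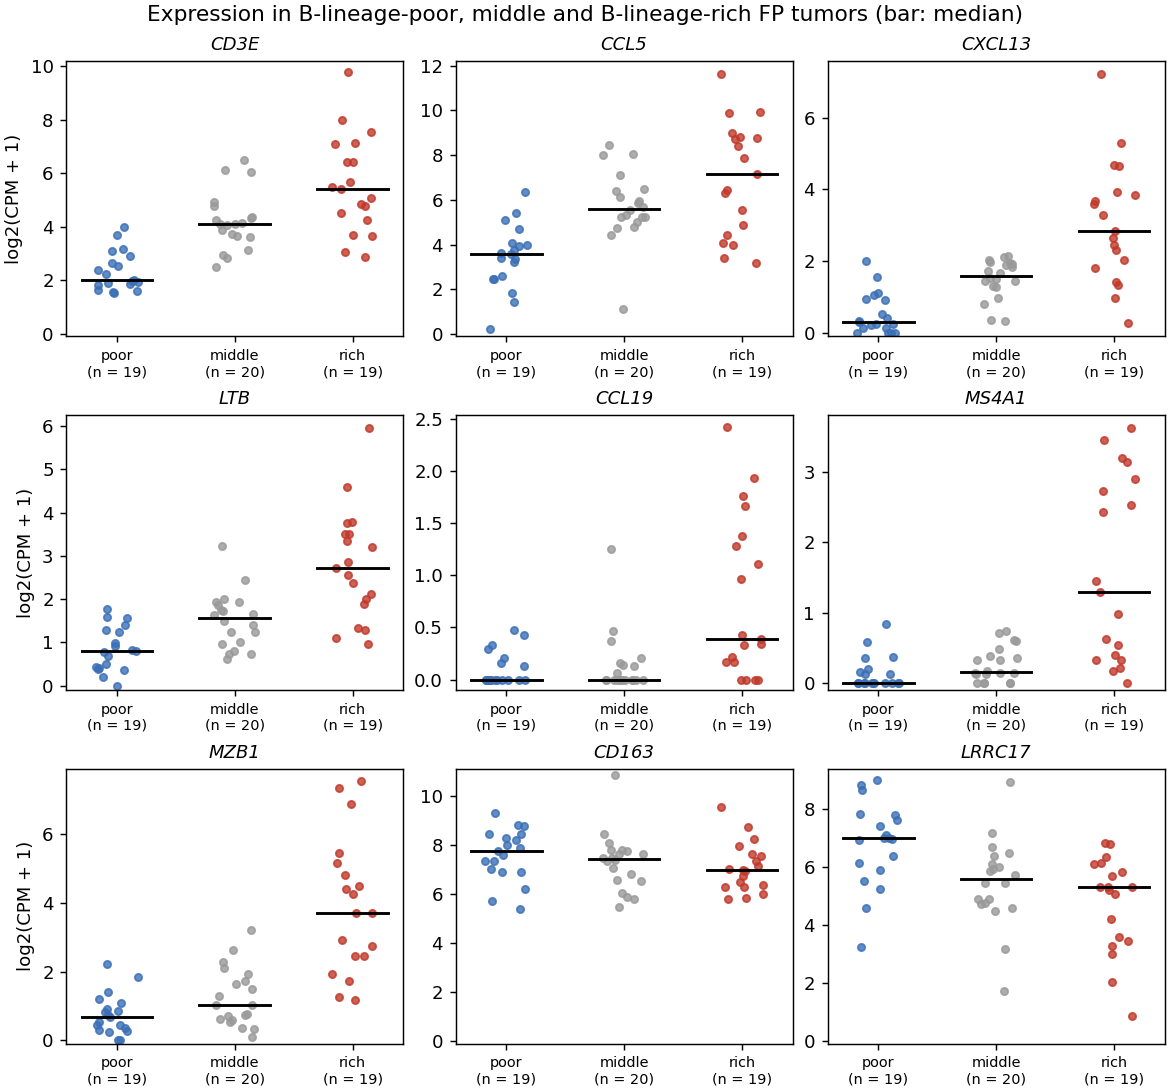
Expression of 9 genes as log2(CPM + 1) in poor (n = 19), middle (n = 20) and rich (n = 19) FP tumors, with 1 point per tumor and a bar at the median. CD3E, CCL5, CXCL13 and LTB step up from poor through middle to rich tumors, CD163 shows no such step, and LRRC17 steps down.

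Of the cytotoxic genes, 4 of 5 tested had a fold change above 0. In the main fit, 2 of the 5 were higher, and 14 did not pass the filter. GZMK, a granzyme of memory T cells, was at 2.67 to 2271 CPM (median 25.7) in rich and 0.442 to 19.3 CPM (median 3.46) in poor tumors, a log2 fold change of 3.26 ± 0.82 (adjusted p = 0.0406). IL2RB, a subunit of the receptors for IL-2 and IL-15, was at 5.68 to 337 CPM (median 17.4) and 1.13 to 9.79 CPM (median 2.65), a log2 fold change of 2.76 ± 0.58 (adjusted p = 0.0133). GZMB, the main apoptosis-inducing granzyme, had a log2 fold change of 2.29 and an adjusted p of 0.139. Without the filter 10 of 19 were higher, among them NKG7 (3.75) and the pore-forming protein PRF1 (3.02).

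The other genes named for their fold change were of mixed roles. CLEC2D, a lectin-like ligand of a natural killer cell receptor, was higher by 3.41 ± 0.65 (adjusted p = 0.00465), and IKZF3, the lymphoid transcription factor Aiolos, by 3.37 ± 0.70 (adjusted p = 0.0107). In each, 15 rich tumors lay above every poor tumor. MBNL3, a splicing regulator, was higher by 3.19 ± 0.63 (adjusted p = 0.00719), IFGGC1 by 3.66 ± 0.80, IFGGB2 by 3.12 and the T cell adaptor SKAP1 by 2.58. IFGGC1 was at 2.66 to 227 CPM (median 45.4) in rich and 0.0872 to 200 CPM (median 1.79) in poor tumors, so only 3 rich tumors lay above every poor tumor despite its large fold change.

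Many lymphoid chemokine and organizer genes had few reads. Of 15 that passed the filter, 1 was higher, with a list median of 0.25, and 8 did not pass. That gene was NFKB2, a subunit of the noncanonical NF-kB pathway through which lymphotoxin acts, at 38.1 to 121 CPM (median 59.7) in rich and 22.6 to 58.4 CPM (median 35.4) in poor tumors. Its log2 fold change was 0.67 ± 0.15 (adjusted p = 0.0212), and 11 rich tumors lay above every poor tumor. The NFKB2 call was lost without the 4 rich tumors above 8 (0.45, adjusted p = 0.125), without the 7 rich tumors with the highest marrow transcripts (0.64, adjusted p = 0.0770) and with the GS-1 level as covariate (0.42, adjusted p = 0.174).

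Without the filter 7 of 23 of these genes were higher, and CXCL13 was the most changed. This B cell attractant was at 0.206 to 147.7 CPM (median 6.15) in rich, a median of 2.02 CPM in middle and 0 to 3.01 CPM (median 0.234) in poor tumors. The log2 fold change was 4.196 ± 0.79 (adjusted p = 0.00126), with 14 rich tumors above every poor tumor and at least 10 counts in 18 rich and 5 poor tumors. LTB, a lymphotoxin chain that organizes lymphoid stroma, was at 0.946 to 61.3 CPM (median 5.59) in rich and 0 to 2.42 CPM (median 0.736) in poor tumors, a log2 fold change of 2.85 (adjusted p = 0.00142). CXCL13 and LTB kept the call without the 4 rich tumors above 8 and without the 7 rich tumors with the highest marrow transcripts. B cells can also express LTB, so the score may set part of its direction.

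Other lymphoid genes lost the call in smaller sets of tumors, or were not called. CCL19, which attracts T cells and dendritic cells through CCR7, reached 4.35 CPM (median 0.314) in rich and 0.394 CPM in poor tumors, with at least 10 counts in 8 rich and 0 poor tumors (log2 fold change 2.17, adjusted p = 0.0319). For CCL19 it was 1.78 without the 4 rich tumors above 8 (adjusted p = 0.24996) and 2.04 without the rich tumor highest in CD3E (adjusted p = 0.0736). IL21, a helper cytokine for B cells, was higher by 2.61 (adjusted p = 0.00177) and LTA, the other lymphotoxin chain, by 1.65 (adjusted p = 0.00771). Without those 4 tumors IL21 differed by 1.70 (adjusted p = 0.0727) and LTA by 1.00 (adjusted p = 0.189). CCL21, the other CCR7 ligand, was at 0 to 371 CPM (median 9.43) in rich and 0 to 123.6 CPM (median 6.46) in poor tumors, with an adjusted p of 0.587. CXCL12, a stromal chemokine that also retains plasma cells, was at 2.20 to 91.9 CPM (median 9.95) against 1.33 to 87.1 CPM (median 13.5), with a log2 fold change of 0.13.

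Inflammatory chemokines had 1 higher gene of 11 tested (list median 0.35). This was CCL5, a T cell product that attracts further T cells, at 8.09 to 3190 CPM (median 140) in rich, a median of 48.1 CPM in middle and 0.177 to 80.1 CPM (median 11.0) in poor tumors. The log2 fold change was 3.68 ± 0.80 (adjusted p = 0.0170), and 11 rich tumors lay above every poor tumor. For CCL5 it was 2.22 with the score from JCHAIN alone (adjusted p = 0.128). Without the filter 5 of 27 were higher, among them the interferon-induced CXCL10 (3.50, adjusted p = 0.0117) and its receptor CXCR3 (2.47, adjusted p = 0.0201). Without the 4 rich tumors above 8 CXCL10 differed by 2.87 (adjusted p = 0.0702) and CXCR3 by 1.64 (adjusted p = 0.156).

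The list of venule and follicle genes, which also holds broader stromal genes such as VCAM1, had no called gene. Whether organized lymphoid tissue was present was not tested. Of 12 tested genes of high endothelial venules and follicular stroma, limma called 0, as did edgeR and DESeq2, with 2 higher and 1 lower at an unadjusted p below 0.05. A further 4 did not pass the filter, and without the filter 0 of 16 were called. VCAM1, an adhesion molecule of activated stroma, was at 26.9 to 559 CPM (median 89.8) in rich and 6.09 to 221 CPM (median 41.9) in poor tumors, a difference of 1.14 on the log2 scale (adjusted p = 0.158). Of the genes of T follicular helper and regulatory T cells, limma called 0 of 6 (4 higher at an unadjusted p below 0.05, 3 by edgeR, 4 by DESeq2), and 12 did not pass the filter. Without it, 8 of 18 were higher, including the checkpoint receptors TIGIT (4.14, adjusted p = 0.000457), CTLA4 (3.36, adjusted p = 0.00145) and PDCD1 (2.88, adjusted p = 0.00418), the costimulator ICOS (3.44, adjusted p = 0.000589) and the regulatory factor FOXP3 (2.68, adjusted p = 0.00164). Without the 4 rich tumors above 8, PDCD1 differed by 1.97 (adjusted p = 0.146).

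Of 9 tested signals for B cell survival and class switching, 1 was higher. IL21R, the receptor of IL-21, was at 5.13 to 70.8 CPM (median 21.6) in rich and 1.34 to 25.7 CPM (median 6.56) in poor tumors, a log2 fold change of 1.42 ± 0.35 (adjusted p = 0.0375). The IL21R call was lost without the 4 rich tumors above 8 (1.06, adjusted p = 0.162). It was also lost without the 7 rich tumors with the highest marrow transcripts (1.36, adjusted p = 0.0780). With the GS-1 level as covariate its log2 fold change was 1.00 (adjusted p = 0.109). TNFSF13B, the survival factor BAFF, had a log2 fold change of 0.25 (adjusted p = 0.783).

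In the main fit, interferon-response genes all had fold changes above 0, with 5 of 28 called higher and a median of 0.95. EdgeR called 8 higher and DESeq2 9, each with a lower list median of 0.46. With the GS-1 level as covariate 1 was called higher (median 0.41). With the PTPRC level (median 0.49) and with the T cell list level (median 0.15) 0 were. IRF1, a transcription factor induced by interferon-gamma, was at 27.7 to 346 CPM (median 105) in rich and 14.1 to 193 CPM (median 28.1) in poor tumors, a log2 fold change of 1.56 ± 0.32 (adjusted p = 0.0100). GBP6, a guanylate-binding protein, was higher by 2.31 (adjusted p = 0.00719), OASL by 2.07, the immunoproteasome subunit PSMB8 by 1.40 and the peptide transporter TAP1 by 1.18. Without the 4 rich tumors above 8, 1 of the 28 was called, and without the 7 rich tumors high in marrow transcripts 2 were. Of the antigen-presenting MHC class II genes limma called 0 of 8, although all 8 passed at an unadjusted p below 0.05, and edgeR called 7 and DESeq2 8. CD74, their chaperone, was at 951 to 9438 CPM (median 2033) in rich and 450 to 3155 CPM (median 1093) in poor tumors, a log2 fold change of 1.04 (adjusted p = 0.0763).

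Myeloid lists held no called gene in the main fit. Limma called 0 of 25 macrophage genes (6 higher and 2 lower at an unadjusted p below 0.05, 6 higher and 1 lower with edgeR and with DESeq2), with a list median of -0.06. CD163, a scavenger receptor of macrophages, was at 55.0 to 735 CPM (median 126) in rich and 40.9 to 625 CPM (median 216) in poor tumors, a log2 fold change of -0.63 (adjusted p = 0.391). C1QC, a complement subunit that macrophages make, was at 142.8 to 2646 CPM (median 378) against 37.7 to 537 CPM (median 158.7), a log2 fold change of 1.37 (adjusted p = 0.0556). With the GS-1 level as a covariate, 5 of the 25 macrophage genes were called lower and 0 higher, with a median of -0.61. Over all genes tested, that fit called 57 higher and 61 lower (0.425% and 0.455%). GS-1 is itself an immune signature whose level differed between the groups, so this shift cannot be read as one of macrophages alone. Limma also called 0 of 12 dendritic cell genes (5 higher unadjusted, 2 by edgeR, 5 by DESeq2) and 0 of 7 neutrophil and mast cell genes (1 higher unadjusted, 1 by each other tool).

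**Figure D3:**
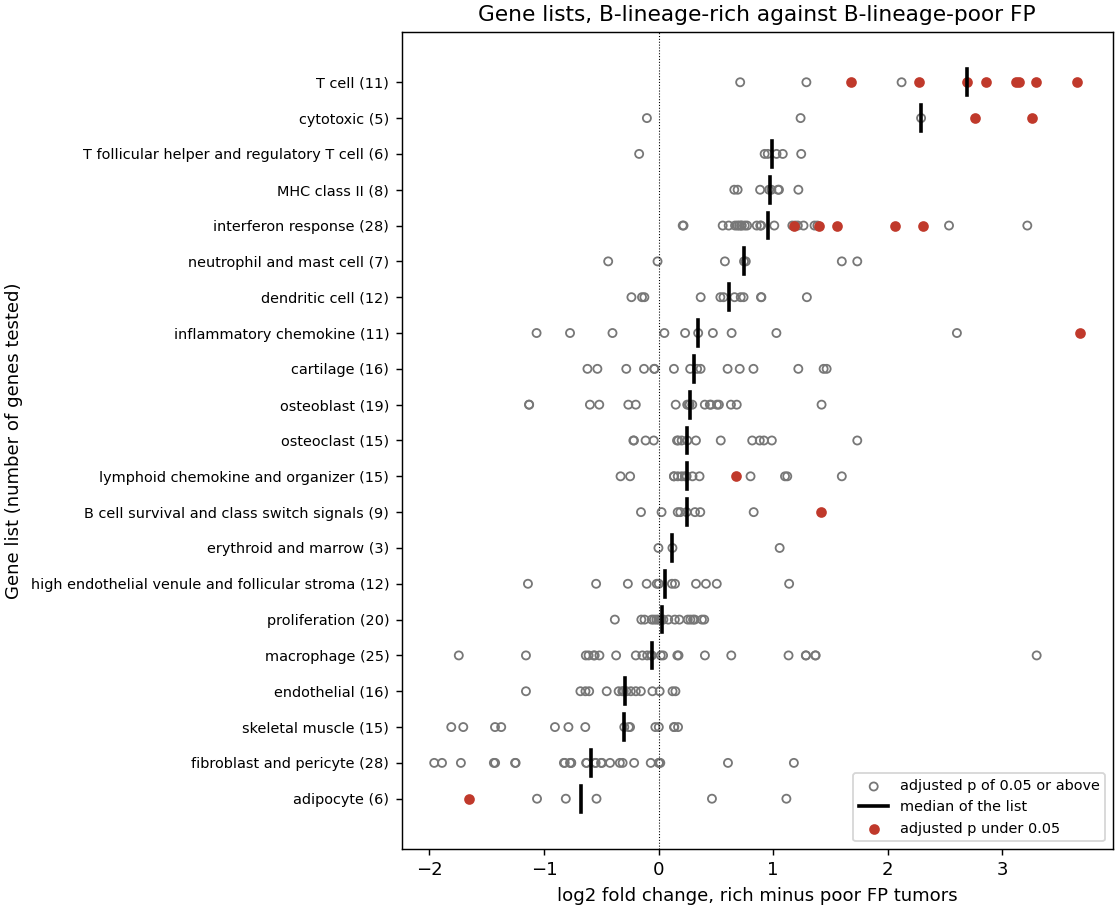
Log2 fold change, rich minus poor FP tumors, of each tested gene in 21 gene lists ordered by their median (black bar), with called genes filled and the number tested in parentheses. T cell genes have the highest median, 2.695, and adipocyte genes the lowest.

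Stroma, bone and tumor cell programs held almost no called genes. Limma called 0 of 28 fibroblast and pericyte genes (6 lower unadjusted, 0 by edgeR, 2 lower by DESeq2), although the median was -0.59 and only 5 lay above 0. DCN, the collagen-binding proteoglycan decorin, was at 0 to 4144 CPM (median 777) in rich and 204 to 3821 CPM (median 1602) in poor tumors, with an adjusted p of 0.294. COL3A1, a fibrillar collagen, was at 29.8 to 14749 CPM (median 3013) and 82.9 to 53779 CPM (median 13437), with an adjusted p of 0.316. The ranges overlapped in both genes, and the poor median of COL3A1 lay near the highest rich tumor.

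Limma called 0 of 19 osteoblast genes (median 0.27, 2 lower unadjusted), 0 of 16 cartilage genes (median 0.31, 1 higher unadjusted), 0 of 15 osteoclast genes (median 0.25, 0 unadjusted) and 0 of 20 proliferation genes (median 0.03, 0 unadjusted). EdgeR called 0 in each, and DESeq2 called 1 osteoblast gene lower and 1 cartilage gene higher. For 16 endothelial genes the count was 0 with a median of -0.29 (1 lower unadjusted, 1 by each other tool). For 15 skeletal muscle genes it was 0 with a median of -0.30, 0 unadjusted and 3 lower by each other tool.

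The lower genes had smaller fold changes than the higher ones. LRRC17, a leucine-rich repeat protein, was at 0.823 to 112 CPM (median 38.6) in rich, a median of 47.4 CPM in middle and 8.45 to 511 CPM (median 128) in poor tumors. The difference was -2.21 ± 0.55 on the log2 scale (adjusted p = 0.0375), with 12 poor tumors above every rich tumor. CD36, a fatty acid transporter of adipocytes, endothelium and macrophages and the only called gene of 6 tested in the adipocyte list, was at 8.09 to 346 CPM (median 58.2) against 44.8 to 1034 CPM (median 148.2), a log2 fold change of -1.65 ± 0.42 (adjusted p = 0.0430). ITGA5, the alpha chain of the fibronectin receptor, was at 166.6 to 1215 CPM (median 419) and 336 to 1630 CPM (median 894), a log2 fold change of -1.10 ± 0.24 (adjusted p = 0.0170).

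KDELR3, a receptor that returns chaperones from the Golgi to the endoplasmic reticulum, was at 20.4 to 344 CPM (median 183.1) in rich and 153.9 to 503 CPM (median 329) in poor tumors, a log2 fold change of -1.03 ± 0.23 (adjusted p = 0.0193). Its paralog KDELR2 differed by -0.71 (adjusted p = 0.0306). WIPI1, an autophagy protein, had a log2 fold change of -0.89 (adjusted p = 0.0279), with 10 poor tumors above every rich tumor. AVEN, an inhibitor of apoptosis (-0.69), the Golgi membrane protein GOLM2 (-0.82), TMEM263 (-0.80) and FAM114A1 (-0.90) were also lower. Of the 10 lower genes named, only KDELR3 kept the call without the 4 rich tumors above 8, and none did without the 7 rich tumors high in marrow transcripts. Several fold changes stayed close in these smaller sets: CD36 was at -1.48 without the 4 and -1.89 without the 7, and ITGA5 at -1.07 and -1.01. With the library group (6 deeper rich and 3 deeper poor tumors) as a term, LRRC17 was not called (-2.17, adjusted p = 0.0698). CD36 (-1.65, adjusted p = 0.0710) and KDELR3 (-0.95, adjusted p = 0.0517) were not called either. FAM114A1, GOLM2, TMEM263 and KDELR2 also lost the call with that term, whereas ITGA5, WIPI1 and AVEN kept it. Higher genes that lost it included GZMK (3.12, adjusted p = 0.0604) and SKAP1 (2.47, adjusted p = 0.0782).

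Those 7 rich tumors stood above every poor tumor in the mean log2(CPM + 1) of the erythroid and marrow list, and 5 of them exceeded every poor tumor in each of MPO, CTSG and ELANE, proteases and enzymes of neutrophil precursors. The list mean was 0.396 to 2.58 in rich and 0.276 to 0.765 in poor tumors. Limma called 0 of its 3 genes that passed the filter (1 higher unadjusted, 0 by edgeR, 1 by DESeq2), and without the filter 3 of 19 were higher, with CTSG at 3.16 (adjusted p = 0.00252). The JCHAIN reads per CD79A read were 15.4 to 334 (median 26.1) in the 7 and 3.81 to 176.6 (median 26.7) in the other 12. Without the 7 tumors, 56 of the 80 higher and 2 of the 30 lower genes were still called, and the part of marrow in the rest was not tested.

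One rich tumor, scored 8.44, stood apart from the others of its group. Its CD3E was at 880 CPM where the other 18 rich tumors reached at most 250 CPM, and its LTB at 61.3 CPM was the highest of all rich tumors. Some bone genes were low: ALPL, the alkaline phosphatase of osteoblasts, was at 0.696 CPM (at least 18.3 CPM in the other rich and 4.17 CPM in the poor tumors), and COL1A1, the main bone collagen, at 328 CPM (at least 1522 and 1107 CPM). RUNX2, the osteoblast transcription factor, was at 126.4 CPM, inside the ranges of the rich (44.8 to 366 CPM) and poor tumors (30.4 to 383 CPM). Without this tumor 68 of the 80 higher and 14 of the 30 lower genes were still called, and CD3E differed by 2.97 on the log2 scale. Genes that lost the call without it included LRRC17 (-1.86), CD36 (-1.63), FAM114A1, GOLM2, TMEM263, IL21R (1.25), OASL (1.88), TAP1 (1.08) and, without the low-count filter, CCL19. Tissue content was not tested.

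The genes that ranked most like the score over the 58 FP tumors included members of the T cell list. Spearman's rho, given as a description, was 0.83 for CD247, 0.82 for CLEC2D, 0.81 for TBC1D10C, 0.80 for CD6, 0.78 for SPOCK2, 0.77 for CD3E, and 0.76 for CD3G and IKZF3. CXCL13 had a rho of 0.75 and CD163 one of -0.19. The lowest value was -0.60, for KDELR3. All these values share the libraries from which the score was made.

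The same division of the 128 PP tumors gave 42 rich and 42 poor tumors, with scores 1.34 apart on average where the FP groups were 3.76 apart. In the PP tumors 28 genes were higher (0.209% of those tested) and 1 lower. Of these 29, 12 were also called in FP tumors, which is 41.4% of the PP calls and 10.9% of the FP calls, and 91 of the 110 FP genes had the same sign. Both divisions used the same score, and the 110 include 10 antigen receptor segments and 5 genes of the B-lineage lists. The score sets the direction of these in both clusters. The overlap is therefore a description, without a share over all genes beside it. CLEC2D was higher by 1.68 (adjusted p = 0.0206) and IKZF3 by 1.24 (adjusted p = 0.0415) in PP tumors. Of the 11 T cell genes limma called 0 there (6 higher at an unadjusted p below 0.05), with a median of 0.61. With limma, the interferon list had 5 genes called higher in each cluster and medians of 0.93 in PP and 0.95 in FP tumors.

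The FP contrast exceeded the PP contrast for 5 genes, of which 4 are named here (0.0373% of 13421; 1354 at an unadjusted p below 0.05). CD6 differed by 2.84 ± 0.62 (3.15 in FP, 0.35 in PP tumors; adjusted p = 0.0483). PIM2, of the plasma cell list, was among the 5 with log2 fold changes of 3.93 and 0.68, which are given as a description because its cells are those the score counts. SEMA4A, a semaphorin that costimulates T cells, differed by 1.32 ± 0.30 (1.501 and 0.21) and TRAF2, an adaptor of TNF receptors, by 0.90 ± 0.19 (0.78 and -0.12); both were chosen after their values were seen. The score itself spanned less in the PP tumors, and its part in these differences was not tested.

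**Figure D4:**
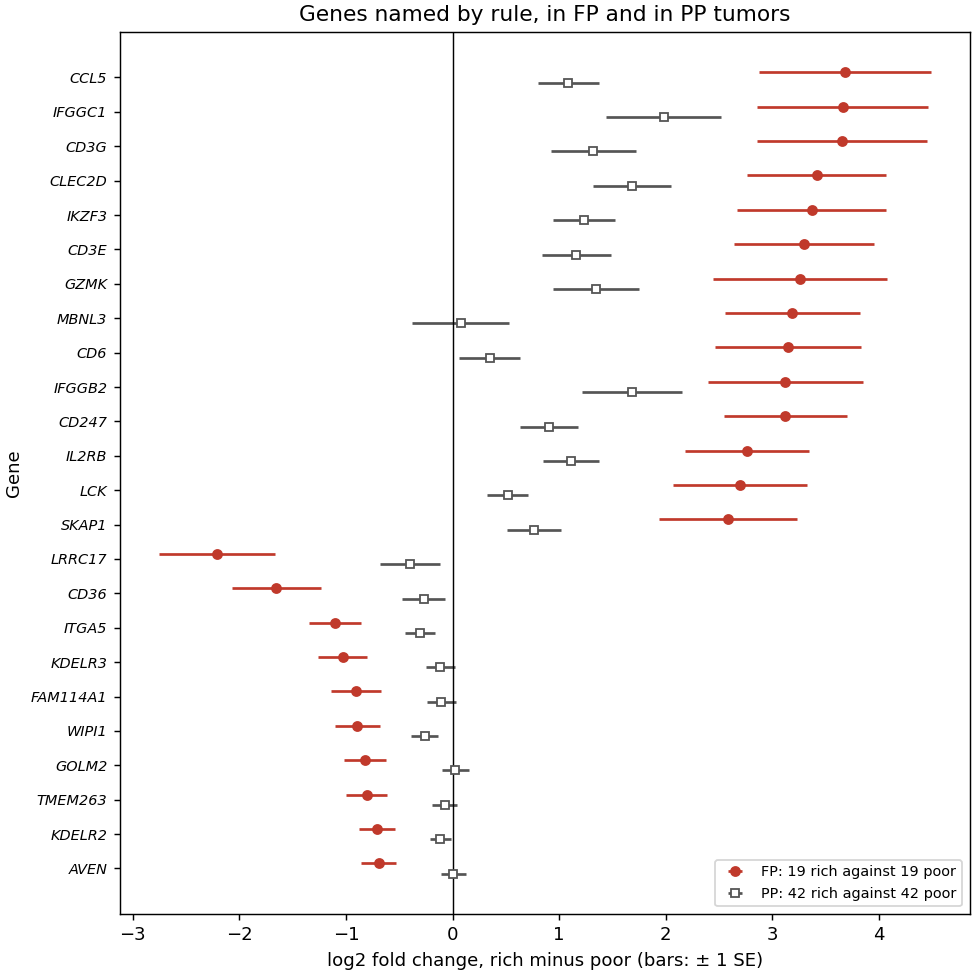
Log2 fold changes, rich minus poor (points), with bars of 1 SE, for 14 higher and 10 lower genes named by rule, in FP tumors (19 against 19, filled) and in PP tumors (42 against 42, open). The FP points lie farther from 0 than the PP points for all 24 genes, which were chosen on the FP contrast.

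Neither outcome passed the test. The disease-free interval (DFI) had a median of 297 days in dogs with rich and 205 days in dogs with poor tumors, with 13 and 12 events. The hazard ratio, rich against poor, was 0.785 with a 95% interval of 0.356 to 1.73 (log-rank by permutation, p = 0.554). Overall survival (OSv) had medians of 373 and 303 days with 14 and 10 events, a hazard ratio of 1.17 (95% interval 0.520 to 2.64) and p = 0.703. Adjusted over the 2 outcomes, both p were 0.703.

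Within COTC021 the hazard ratio was 0.677 for DFI (exact permutation p = 0.543) and 0.633 for OSv (exact permutation p = 0.477). Within COTC022 it was 0.878 (exact permutation p = 0.813) and 1.70 (exact permutation p = 0.354). For DFI within COTC022, the Cox test of proportional hazards gave p = 0.0276, so a constant hazard ratio may not describe that comparison. Its medians were 317.5 days in 8 dogs with rich and 138 days in 12 dogs with poor tumors. The test of a difference between trials gave p = 0.755 for DFI and 0.241 for OSv (Cox model). With the score as a continuous measure over 58 dogs, the hazard ratio per unit was 0.901 for DFI (permutation p = 0.121) and 1.00 for OSv. The intervals span both a lower and a higher hazard and rest on 25 DFI events and 24 OSv events.

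**Figure D5:**
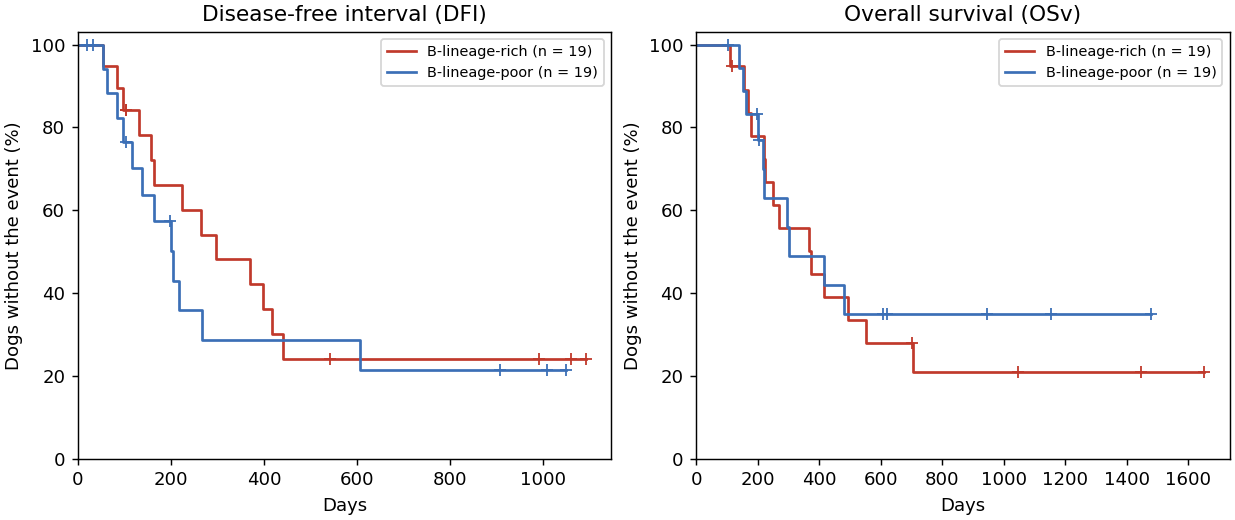
Kaplan-Meier curves of DFI and OSv, as the percentage of dogs without the event against days, for 19 dogs with B-lineage-rich and 19 with B-lineage-poor tumors, with ticks at censoring. The DFI curve of the rich tumors lies above that of the poor tumors until they cross at day 441. They cross again at day 607, after which the rich curve lies above, and the OSv curves also cross.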

How the data were processed

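The authors aligned reads with STAR 2.7.0f to the GSD_1.0 build and estimated gene abundance with RSEM 1.3.1. The deposited table holds expected counts without normalization, rounded here. GS-1 cluster, DFI and OSv came from the study's supplementary data. Of 198 columns, 12 that match no sample of the series were not used. Low counts were removed over 186 libraries with filterByExpr of edgeR 4.0.16 (a minimum count of 10 in a proportion of 0.5 of libraries, with a large-group size of 5). TMM factors and limma 3.58.1 voom followed, with trial as covariate. P-values were adjusted over 13421 genes, leaving out CD79A and JCHAIN. Survival used survival 3.8.3 with 100000 permutations, or all of them within trials. The fit was tested on simulated data for the FP contrast with 13421 genes: of 200 genes changed 4-fold, 174 were called, and 11 unchanged ones. The text names the 15 most higher and 10 most lower called genes with a symbol, the same sign in both trials and no place in the B-lineage lists, genes ranked like the score, and members of lists. Some genes that this rule selects are not reported here. Members and lists were chosen with earlier results of these data known. P-values measure spread between dogs. Gene names and coordinates are those of the RefSeq table for UU_Cfam_GSD_1.0.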

Additional observations from a re-analysis of the deposited data

Results flagged for a closer look

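The contrast of B-lineage-rich with B-lineage-poor tumors was larger in FP than in PP tumors for 5 genes in a limma test of the difference itself. For 3 of them the differences, FP minus PP on the log2 scale, were 2.84 for CD6, 1.32 for SEMA4A and 0.90 for TRAF2. CD6 acts in T cell receptor signalling, SEMA4A costimulates T cells and TRAF2 is an adaptor of TNF receptors. PIM2, which belongs to the plasma cell list and so follows the cells that the score counts, is left as a description. With edgeR 200 genes passed, 38 of them with a lower log2 fold change in FP than in PP tumors, and without the low-count filter 197, of which 10 were lower. The score gap was 3.76 in FP and 1.34 in PP tumors.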

How the results depend on the processing

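The numbers of higher and lower genes depended most on the test and on which tumors were compared. Called higher and lower were 0.596% and 0.224% of tested genes, and 2.39% and 0.864% with edgeR, 3.61% and 2.00% with DESeq2, 1.75% and 0.217% with no low-count filter (58 genes lower), 1.94% and 1.51% with quality weights, and 0.976% and 0.529% with no trial term. Higher genes were 0.358% with the marrow list level, 0.253% with the T cell list level and 0.305% with the PTPRC level as covariates. Lower genes were 0.0447% with the marrow level, 0.455% with GS-1 level and 0.0969% with library group. Within COTC021 0 and 0 genes were called (1506 at an unadjusted p below 0.05), and within COTC022 0.0894% and 0. With the score from CD79A alone the shares were 1.45% and 0.380%, from the upper against the lower 29 tumors 0.283% and 0.0298%, from the outer 14 on each side 1.28% and 0.440%, and from the continuous score 5.69% and 1.64%. Lower genes were 0.954% with JCHAIN alone, 0.0745% with a TMM score and 0.127% without the deeper libraries, a set named in another style in the deposited table (6 rich and 3 poor tumors). Without the 4 rich tumors above 8, the 7 high in marrow genes and the 1 highest in CD3E, lower genes were 0.0894%, 0.0224% and 0.134%. These exclusions and the T cell and PTPRC covariates were chosen after seeing the data. The difference between FP and PP tumors was called for 200 genes by edgeR and 197 with no filter.

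The DFI hazard ratio turned to 1.06 with CD79A alone and 1.02 without the 4 tumors above 8. The OSv hazard ratio turned to 0.633 within COTC021 and 0.998 with JCHAIN alone. With the T cell list level, CCL5 turned to -0.12, CD2 to -0.62 and PSMB8 to -0.10. The cause of these changes was not tested. Of the 110 called genes, 107 were also called by edgeR, 109 by DESeq2, 55 with GS-1 level, 37 with PTPRC level, 50 with marrow level and 9 with T cell list level. Of those 9, 7 were antigen receptor segments, whose direction the score sets. The differences in GS-1 and PTPRC level kept direction and call in all 4 alternatives each. MS4A1 and CCL19 held under 10 counts in many libraries. Of 36 called genes followed singly, 27 lost the call with JCHAIN alone, 5 with CD79A alone, 14 with library group and 16 without the deeper libraries, each with the same sign.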
